A study of Mus musculus with 10 samples.

Results

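The BCL2 family decides whether a cell keeps its mitochondria intact, and its members were followed here as 10 genes that were taken by name from a count table of 46959 mouse genes. They were the guardians Mcl1, Bcl2 and Bcl2l1, the pore formers Bax and Bak1, and the triggers Bcl2l11, Bid, Bmf, Bbc3 and Pmaip1. All 10 were present and all 10 passed the filter on low counts in every comparison. RNA was sequenced from 10 libraries. The femoral KOKI group held 2 pools of 3 mice each, and these pools differed in background: RAG2 and gamma c were missing in the first pool, and RAG2 alone in the second. The femoral control group held 2 pools of 3 mice lacking RAG2 and gamma c, without the KOKI allele. By the series' design, every femoral genotype of the 3 had 2 pools, whereas the libraries analysed here are 2 control pools and 1 KOKI pool on each background. All femoral mice therefore lacked RAG2, which is needed to rearrange antigen receptor genes, and all but the second KOKI pool lacked gamma c, a chain shared by several interleukin receptors. The splenic groups were KOKI cultures with LPS (KOKI LPS, n = 2), cultures of wild-type BLACK-6 cells with LPS and the HDAC inhibitor SAHA (WT LPS+SAHA, n = 2) and wild-type cultures with LPS alone (WT LPS, n = 2). Splenocytes without CD43, mostly resting B cells, were grown for 2 days in 10% serum with 5 µg/ml LPS, a bacterial product that makes B cells divide, and SAHA was added at 200 ng/ml from the start. KOKI is given without explanation, and the series title speaks of a mini 3'RR, the regulatory region 3′ of the immunoglobulin heavy chain genes. Title and design text give LPS alone for the KOKI cultures, whereas their treatment label also names SAHA, so they were compared with both wild-type groups. Ages were not given.

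The guardians hold the pore formers Bax and Bak1 in check on the outer mitochondrial membrane. The triggers, called BH3-only proteins, bind the guardians, and some also activate the pore formers directly, after which cytochrome c leaves the mitochondria and caspases are switched on. In B cells, BCL2 and BCL-XL (the product of Bcl2l1) carry resting and activated cells, MCL1 is needed at nearly every stage, BIM (Bcl2l11) removes self-reactive cells, and loss of BMF lets B cells accumulate in mice. PUMA (Bbc3), NOXA (Pmaip1) and BAX are classical targets of p53, and BMF is known to be raised by HDAC inhibitors in tumour lines.

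Promoters of the members differ in their base composition, and 4 are shown because they belong to the members on which the results turn: Bmf and Bcl2l1, which differed between splenic groups, Bax, which came next to the threshold under SAHA, and Bcl2 as a contrast rich in CpG. Each runs 5′ to 3′ on the gene's strand from 250 bases before to 50 bases after a transcription start of RefSeq (GRCm38.p6), and of the starts listed for a gene the nearest to the start in the deposited table was taken. Of the 10 members, 9 matched this table. Capitals mark the GC box GGGCGG, bound by the Sp1 family, and the E-box CACGTG, bound by Myc and related factors, on either strand.
Bmf, chr2:118549637-118549936, minus strand: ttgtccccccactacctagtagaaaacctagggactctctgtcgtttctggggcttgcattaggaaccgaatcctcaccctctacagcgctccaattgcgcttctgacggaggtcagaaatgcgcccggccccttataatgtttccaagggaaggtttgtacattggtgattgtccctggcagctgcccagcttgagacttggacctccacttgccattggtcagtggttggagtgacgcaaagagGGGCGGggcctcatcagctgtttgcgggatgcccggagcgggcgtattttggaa
Bcl2l1, chr2:152831679-152831978, minus strand: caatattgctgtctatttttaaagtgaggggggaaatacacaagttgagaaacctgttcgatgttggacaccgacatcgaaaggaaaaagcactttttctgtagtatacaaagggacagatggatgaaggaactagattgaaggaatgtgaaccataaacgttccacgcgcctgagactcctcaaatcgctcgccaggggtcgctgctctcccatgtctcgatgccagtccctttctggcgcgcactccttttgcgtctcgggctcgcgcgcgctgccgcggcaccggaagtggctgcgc
Bax, chr7:45466849-45467148, minus strand: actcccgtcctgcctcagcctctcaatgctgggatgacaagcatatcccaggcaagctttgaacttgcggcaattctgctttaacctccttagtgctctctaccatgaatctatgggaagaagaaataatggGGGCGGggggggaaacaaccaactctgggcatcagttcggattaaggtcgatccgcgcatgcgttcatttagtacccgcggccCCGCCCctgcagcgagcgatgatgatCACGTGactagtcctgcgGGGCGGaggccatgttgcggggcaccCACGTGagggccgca
Bcl2, chr1:106714241-106714540, minus strand: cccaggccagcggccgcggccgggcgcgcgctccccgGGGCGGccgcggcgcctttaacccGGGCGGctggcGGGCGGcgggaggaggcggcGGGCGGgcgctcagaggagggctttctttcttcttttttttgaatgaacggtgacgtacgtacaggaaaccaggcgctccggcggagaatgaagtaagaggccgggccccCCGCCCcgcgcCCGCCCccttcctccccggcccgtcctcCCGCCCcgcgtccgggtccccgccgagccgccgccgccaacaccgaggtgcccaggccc
The Bmf window held 1 GC box and 13 CpG pairs, and the Bcl2l1 window held 0 GC boxes and 22 CpG pairs. Bax had 3 GC boxes and 2 E-boxes, and the Bcl2 window had 7 GC boxes, 0 E-boxes and 44 CpG pairs. Over 32851 promoter windows of the same length, 35.7% held a GC box and 7.15% an E-box, and the median window had 7 CpG pairs. These matches are letters in a window and were not tested for binding.

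Libraries held 18614742 to 29314068 counts, and single members had between 74 counts (Bbc3) and 13758 counts (Mcl1) in a library. The splenic libraries carried mature B cell markers at a summed level of 2442 to 3914 CPM, counts scaled to a common library total, with 0 of the 8 markers at 0. The femoral libraries, although labelled as B cells, held only 11.8 to 15.1 CPM of them, with 2 to 3 of the 8 at 0, and Ms4a1 (CD20) at 0 in 3 of the 4 libraries. They held neutrophil markers at 13004 to 20306 CPM and erythroid markers at 8941 to 12056 CPM, against at most 3.60 and 12.6 CPM in the splenic ones. Library checks also set KOKI LPS replicate 2 apart, with 8499 counts of Xist against at most 9 in the other libraries. Its count of the Y-linked gene Ddx3y was 20, against 1853 to 5868 in the others. This is the pattern of female cells, so KOKI LPS mixed the sexes, whereas all other libraries had the male pattern. WT LPS+SAHA replicate 2 stood apart as well, with counts on 451 of 1292 olfactory receptor genes. WT LPS+SAHA replicate 1 came next with 126, and the libraries without SAHA in their title had 15 to 47. In bulk RNA, fewer cells of a type and less RNA per cell cannot be told apart.

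Within every library Mcl1 gave the largest share of the family's RNA per unit of gene length. TPM, a level per unit of gene length, was computed from the deposited counts and gene lengths, and each member is given as its percentage of the summed TPM of the 10 members, so that the library total cancels. Mcl1 made up 46.2% and 48.7% in the femoral KOKI pools, 55.5% and 55.6% in the femoral controls, 49.0% and 48.0% in KOKI LPS, 47.4% and 50.2% in WT LPS+SAHA and 43.9% and 42.7% in WT LPS. The lowest values were those of WT LPS, and the highest those of the femoral controls. Bax came next in every library, at 11.5% to 26.1%. Its sister pore former Bak1 reached 3.69% to 5.15% in the splenic and 8.29% to 10.7% in the femoral libraries, which did not overlap. Bcl2 stood at 2.62% to 5.33% and Bcl2l1 at 1.80% to 2.41%. The triggers together gave 13.4% to 20.5%, and Bid had the largest share of them in each library, at 7.39% to 9.78%. The 3 guardians together gave 55.7% and 55.8% in KOKI LPS, 54.3% and 56.9% in WT LPS+SAHA, and 50.04% and 49.0% in WT LPS; both treated or mutant groups lay above WT LPS.

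**Figure D1:**
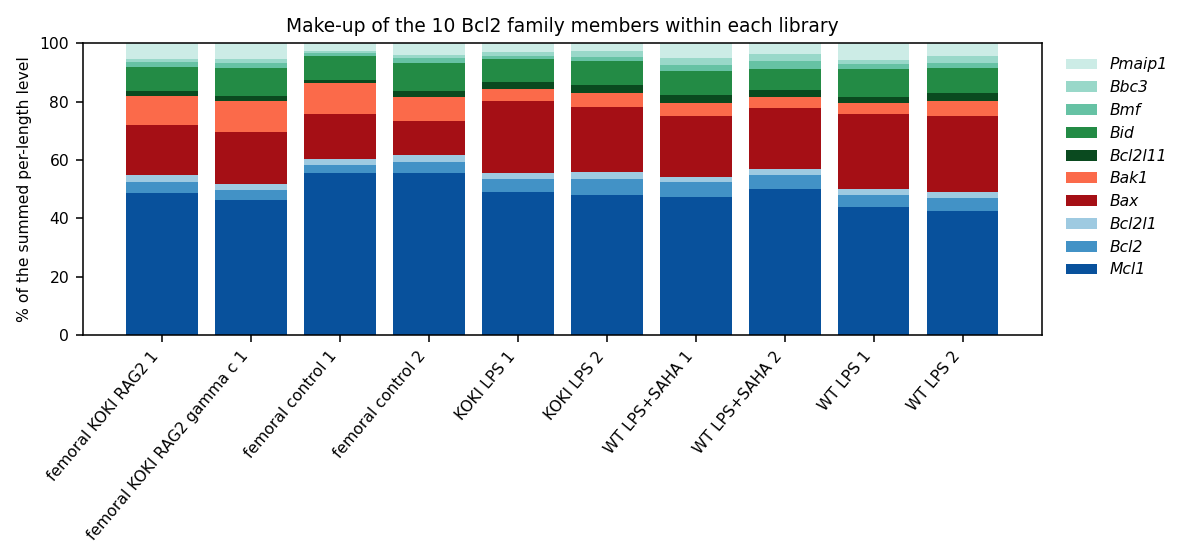
Stacked bars give each member's percentage of the summed per-length level (TPM) of the 10 members, with 1 bar per library; blue shades are the guardians, red shades the pore formers and green shades the triggers. Mcl1 is the largest block in all 10 bars, from 42.7% to 55.6%, and the Bak1 block is wider in the 4 femoral bars than in the splenic ones.

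The order of the groups differed between members. By mean CPM, scaled with TMM library sizes over all 10 libraries, 7 members (Bcl2, Bcl2l1, Mcl1, Bcl2l11, Bax, Bbc3 and Bid) had all 3 splenic groups above both femoral groups with no overlap of libraries between the tissues. Bmf had the same order of tissues, with overlap. For Bcl2 the splenic neighbours KOKI LPS, WT LPS+SAHA and WT LPS overlapped, as did femoral KOKI and femoral control. Bcl2l1 had no overlap between any neighbours, in the order KOKI LPS, WT LPS, WT LPS+SAHA, femoral control and femoral KOKI. Bmf ran from WT LPS+SAHA over WT LPS to KOKI LPS, with no overlap among these 3, and KOKI LPS overlapped femoral KOKI. Pmaip1 ran from WT LPS over WT LPS+SAHA and femoral KOKI to KOKI LPS and femoral control. There WT LPS overlapped WT LPS+SAHA, which overlapped femoral KOKI, and the later neighbours did not overlap. Bak1 alone was highest in the femoral groups, which overlapped each other.

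**Figure D2:**
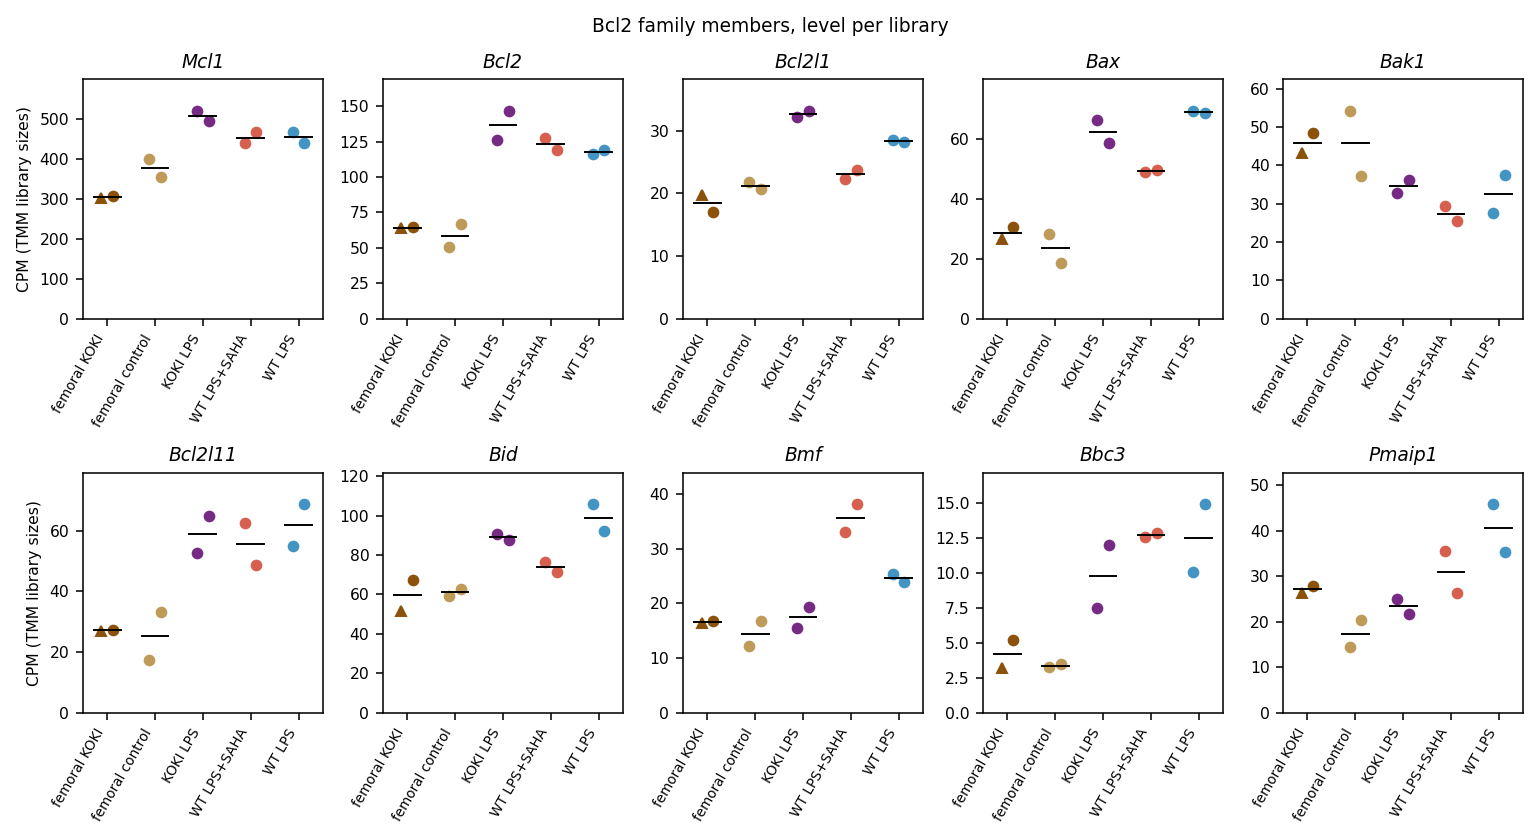
Each panel plots 1 member in CPM (TMM library sizes, linear axis from 0) with 1 point per library and a line at the group mean; triangles are the femoral KOKI pool that lacked RAG2 alone. Bmf is highest in WT LPS+SAHA, at 33.0 and 38.2 CPM, Pmaip1 is highest in WT LPS replicate 1, at 45.8 CPM, and Bak1 is the only panel with both femoral means above all splenic means.

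The first comparison asked what HDAC inhibition did to the family in WT LPS cultures. No member passed the test, which had no replicate block, but the trigger Bmf lay higher and the pore former Bax lower in both SAHA libraries. Bmf stood at 33.0 and 38.2 CPM in WT LPS+SAHA, against 25.5 and 24.0 CPM in WT LPS (log2 0.55, SE 0.16, edgeR adjusted p = 0.0844). Bax stood at 48.9 and 49.7 CPM in WT LPS+SAHA, against 69.5 and 68.6 CPM in WT LPS (log2 −0.46, SE 0.12, edgeR adjusted p = 0.0692). The groups did not overlap for either gene. Of the 10 members, edgeR called 0 (3 at an unadjusted p under 0.05, and 2 by the DESeq2 Wald test, Bax and Bmf), beside 4.64% of 15342 genes called (0.952% higher and 3.69% lower). Over all genes, 3876 of 15342 had an unadjusted edgeR p under 0.05, and DESeq2 called 1704. With the WT number as a replicate block, fitted on the wild-type libraries alone, edgeR called 3 members (Bmf higher, Bax and Bid lower), beside 3413 of 14961 genes. The fit without the block, which called 712 genes, also held KOKI LPS, so these fits differ in more than the block. The labels do not state that equal WT numbers mark a shared animal. On the CPM scale of the 6 splenic libraries alone, which the fit used, the groups did not overlap for 2 members that were higher (Bmf and Bcl2) and 3 that were lower (Bax, Bid and Bcl2l1) with SAHA, beside 27.5% and 28.4% of all genes. Scaled over all 10 libraries, as in the values given here, Bcl2 overlapped. The median log2 fold change was −0.17 over the members and 0.02 over all genes. DESeq2 gave Bax an adjusted p of 0.042 and Bmf one of 0.0449. Without WT LPS+SAHA replicate 2, the library with counts on the most olfactory receptor genes, Bmf was at log2 0.43 and Bax at log2 −0.48.

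None of the guardians passed with SAHA. Mcl1 stood at 439 and 468 CPM in WT LPS+SAHA, against 466 and 441 CPM in WT LPS, and the groups overlapped (log2 0.03, 95% interval −0.33 to 0.39). Bcl2 stood at 128 and 119 CPM in WT LPS+SAHA, against 117 and 119 CPM in WT LPS (log2 0.09, 95% interval −0.22 to 0.41). Bcl2l1 was at 22.3 and 23.7 CPM in WT LPS+SAHA, below both WT LPS libraries at 28.4 and 28.1 CPM (log2 −0.27, edgeR adjusted p = 0.242). Among the triggers, Bid, the link from death receptors to mitochondria, was at 76.5 and 71.5 CPM in WT LPS+SAHA, against 106 and 92.1 CPM in WT LPS (log2 −0.39, edgeR adjusted p = 0.104). Bid shares 628 exon bases with Bcl2l13 on the other strand, and the strand setting of the counting is not given in the sources used here, so its counts are uncertain. Bak1 and Bcl2 share 357 and 558 exon bases with genes on the other strand that had at most 73 and 34 counts. Bcl2l11, Bbc3, Pmaip1 and Bak1 had overlapping groups and log2 fold changes from −0.36 to 0.05. Marker sums of cell types moved alongside. Macrophage and monocyte markers summed to 42.4 and 50.1 CPM in WT LPS+SAHA and 23.7 and 25.3 CPM in WT LPS. Mature B cell markers summed to 3149 and 3914 CPM in WT LPS+SAHA and 2554 and 2721 CPM in WT LPS. Plasmablast markers were lower, at 359 and 442 CPM in WT LPS+SAHA and 535 and 568 CPM in WT LPS. The part of these cells in the values of Bmf and Bax was not tested.

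Around the family, 8 genes of 5 further lists changed with SAHA. The lists are background to the members and were chosen with earlier results of these data known. Of 22 caspases, apoptosome parts and inhibitors of apoptosis, Naip5, a sensor of bacterial flagellin with an inhibitor-of-apoptosis domain, rose (log2 1.22) and Birc5, or survivin, which works in mitosis and against caspases, fell (log2 −1.06), with a list median of log2 −0.13. Birc5 stood at 48.5 and 42.8 CPM in WT LPS+SAHA, against 102 and 91.4 CPM in WT LPS (SE 0.13, edgeR adjusted p = 0.0193). Of 20 p53 pathway genes, Sesn1 rose (log2 0.72) and Sesn2 and the cyclin Ccng1 fell (log2 −1.26 and −0.66), with a median of −0.24. Of 23 regulators and partners, Bcl6, a germinal centre repressor, rose (log2 1.16), and Pim2, a survival kinase, and the mitochondrial channel Vdac3 fell (log2 −0.74 and −0.73), with a median of −0.33. Of 11 other BCL2 family genes 0 were called (1 at an unadjusted p under 0.05, 0 by DESeq2), and of 13 death receptor genes 0 were called (2 at an unadjusted p under 0.05, 1 by DESeq2). Without WT LPS replicate 1, or without either SAHA library, edgeR called 0 genes in the whole table, with 2650, 2973 and 3136 at an unadjusted p under 0.05.

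In KOKI LPS cultures against WT LPS, no member passed either, and the largest difference was in the trigger Pmaip1 (NOXA), which neutralises MCL1. Pmaip1 stood at 25.0 and 21.7 CPM in KOKI LPS, against 45.8 and 35.4 CPM in WT LPS (log2 −0.77, SE 0.19, edgeR adjusted p = 0.07). The KOKI libraries lay below both WT LPS libraries. Of the 10 members edgeR called 0 (2 at an unadjusted p under 0.05, 1 by DESeq2, which gave Pmaip1 an adjusted p of 0.0236), beside 4.08% of 15342 genes (2.25% higher and 1.83% lower). Over all genes, 2678 of 15342 had an unadjusted edgeR p under 0.05, and DESeq2 called 1088. On the scale of the splenic fit, libraries did not overlap for 3 members that were higher and 4 that were lower in KOKI LPS, beside 23% and 24.1% of all genes. The median over the members was log2 −0.09, against −0.02 over all genes. Without KOKI LPS replicate 2, the library with Xist counts, Pmaip1 was at log2 −0.68, and without WT LPS replicate 1 at log2 −0.59.

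Bmf was at 15.5 and 19.4 CPM in KOKI LPS, against 25.5 and 24.0 CPM in WT LPS (log2 −0.48, SE 0.16, edgeR adjusted p = 0.175). Both KOKI libraries were lower than both WT LPS libraries, which also served as controls for SAHA. The 3 guardians had small positive differences. Mcl1 stood at 521 and 494 CPM in KOKI LPS, against 466 and 441 CPM in WT LPS (log2 0.18, 95% interval −0.17 to 0.54). Bcl2 stood at 126 and 147 CPM in KOKI LPS, against 117 and 119 CPM in WT LPS (log2 0.24, 95% interval −0.08 to 0.55). Bcl2l1 stood at 32.1 and 33.2 CPM in KOKI LPS, against 28.4 and 28.1 CPM in WT LPS (log2 0.23, 95% interval −0.07 to 0.53). Each of these KOKI libraries was above both WT LPS libraries of the same gene, and none of these differences passed. Bax (log2 −0.12), Bak1 (log2 0.11), Bid (log2 −0.13), Bcl2l11 (log2 −0.05) and Bbc3 (log2 −0.34) were also not called. Plasmablast markers summed to 1305 and 1173 CPM in KOKI LPS and 535 and 568 CPM in WT LPS, and T cell markers to 9.58 and 8.06 CPM in KOKI LPS and 14.2 and 13.9 CPM in WT LPS. Macrophage and monocyte markers summed to 13.2 and 13.4 CPM in KOKI LPS and 23.7 and 25.3 CPM in WT LPS; the part of these cells in the values above was not tested.

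More distant relatives of the family did change in KOKI cultures. Bnip3 and Bnip3l (NIX), mitochondrial proteins that direct mitophagy and are known to be induced by low oxygen, rose. Bnip3 stood at 60.4 and 88.0 CPM in KOKI LPS, against 9.54 and 11.1 CPM in WT LPS (log2 2.86, SE 0.22, edgeR adjusted p = 0.000547). Bnip3l stood at 95.6 and 136 CPM in KOKI LPS, against 34.9 and 34.2 CPM in WT LPS (log2 1.77, SE 0.18, edgeR adjusted p = 0.00183). In both genes every KOKI library lay above every WT LPS library. The guardian Bcl2l2 (BCL-W) fell to 9.58 and 10.3 CPM in KOKI LPS, against 17.97 and 16.0 CPM in WT LPS (log2 −0.75, edgeR adjusted p = 0.0462). These were 2 rises and 1 fall among 11 other BCL2 family genes, whose median was −0.30. The median over 22 caspase and inhibitor genes was 0.10. Of 23 regulators, the stress kinase Mapk8 (JNK1) fell (log2 −1.03), with a median of 0.04, and of 13 death receptor genes Mlkl, the pore former of necroptosis, fell (log2 −1.04), with a median of −0.07. Of 20 p53 pathway genes 0 were called (3 at an unadjusted p under 0.05, 1 by DESeq2). Bnip3 and Bnip3l also passed without each library in turn, whereas Bcl2l2 and Mlkl passed without none of the 4 libraries (edgeR adjusted p = 0.0745 to 0.217). Mapk8 failed without KOKI LPS replicate 2 (edgeR adjusted p = 0.0553).

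**Figure D3:**
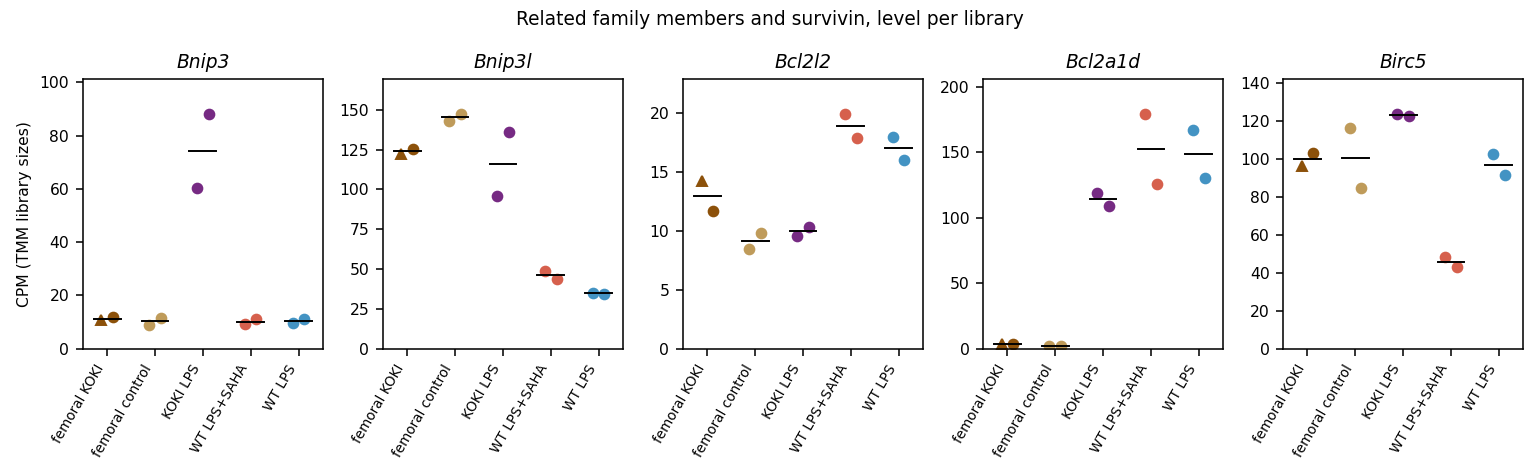
Panels plot Bnip3, Bnip3l, Bcl2l2, Bcl2a1d and Birc5 in CPM (linear axis from 0) with 1 point per library and a line at the group mean; triangles are the femoral KOKI pool that lacked RAG2 alone. Bnip3 stands at 60.4 and 88.0 CPM in KOKI LPS and at 9.01 to 11.8 CPM in the other 8 libraries.

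KOKI LPS against WT LPS+SAHA was the comparison under the other reading of the KOKI treatment label. By title and design text, its groups differed in both KOKI and SAHA, which cannot be told apart in it. This comparison gave the only edgeR calls among the members in the splenic fit with the low-count filter and without a replicate block. Without the filter, edgeR also called 1 member for KOKI LPS against WT LPS. Bmf was lower and Bcl2l1 higher in KOKI LPS. Bmf stood at 15.5 and 19.4 CPM in KOKI LPS, against 33.0 and 38.2 CPM in WT LPS+SAHA (log2 −1.04, SE 0.16, edgeR adjusted p = 0.00489). Bcl2l1 stood at 32.1 and 33.2 CPM in KOKI LPS, against 22.3 and 23.7 CPM in WT LPS+SAHA (log2 0.50, SE 0.13, edgeR adjusted p = 0.0293). The groups did not overlap for either. These were 2 of 10 members, beside 23.7% of 15342 genes (14.1% higher and 9.64% lower), so the share of members was near that of all genes. On the scale of the splenic fit, libraries did not overlap for 5 members that were higher and 3 that were lower in KOKI LPS, beside 32.7% and 33.1% of all genes, and the median was log2 0.15 over the members and −0.03 over all genes. Bmf kept its call when each of the 4 libraries was left out (log2 −1.18 to −0.85, adjusted p at most 0.0357). Bcl2l1 lost it without any of these libraries (log2 0.46 to 0.55, edgeR adjusted p = 0.0851 to 0.15). Plasmablast markers summed to 1305 and 1173 CPM in KOKI LPS and 359 and 442 CPM in WT LPS+SAHA, and mature B cell markers to 2442 and 2646 CPM in KOKI LPS and 3149 and 3914 CPM in WT LPS+SAHA. Macrophage and monocyte markers summed to 13.2 and 13.4 CPM in KOKI LPS and 42.4 and 50.1 CPM in WT LPS+SAHA, and T cell markers to 9.58 and 8.06 CPM in KOKI LPS and 16.0 and 20.7 CPM in WT LPS+SAHA. Their part in the values of Bmf and Bcl2l1 was not tested.

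The other members did not pass in this comparison. Bax was at 66.2 and 58.5 CPM in KOKI LPS, against 48.9 and 49.7 CPM in WT LPS+SAHA (log2 0.33, edgeR adjusted p = 0.0836). Bid had log2 0.26 and Bak1 log2 0.33, with their KOKI libraries above both SAHA libraries. Mcl1 had log2 0.16, Bcl2 log2 0.14 and Bcl2l11 log2 0.08. Pmaip1 was at log2 −0.41 and Bbc3 at log2 −0.39, with libraries at 7.47 and 12 CPM in KOKI LPS and 12.5 and 12.8 CPM in WT LPS+SAHA. In the further lists, 6 caspase and inhibitor genes rose and 1 fell of 22 (median 0.18), among them Birc5 (log2 1.42) and cytochrome c, Cycs (log2 1.16), while Naip5 fell (log2 −1.17). Of 23 regulators and partners, 10 rose and 3 fell (median 0.13), among them the survival kinase Pim1 (log2 1.11), Dynll1, the dynein light chain that tethers BIM (log2 1.05), and the mitochondrial ubiquitin ligase March5 (log2 1.02), against falls of Bcl6 (log2 −1.32), Mapk8 (log2 −0.68) and Rel (log2 −0.68). Of 20 p53 pathway genes, Sesn2 (log2 1.25) and Ccng1 (log2 1.00) rose and Sesn1 fell (log2 −1.11), with a median of 0.21. Of 11 other family genes, Bnip3 (log2 2.87) and Bnip3l (log2 1.32) rose and Bcl2l2 fell (log2 −0.93), with a median of 0.43. Of 13 death receptor genes, Fas (log2 −1.06) and Mlkl (log2 −1.02) fell, with a median of 0.05. Left out in turn, at least 1 of the 4 libraries ended the calls of Cycs, Naip5, Mapk8, Rel, Sesn2, Fas and Mlkl (edgeR adjusted p = 0.0562 to 0.139).

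**Figure D4:**
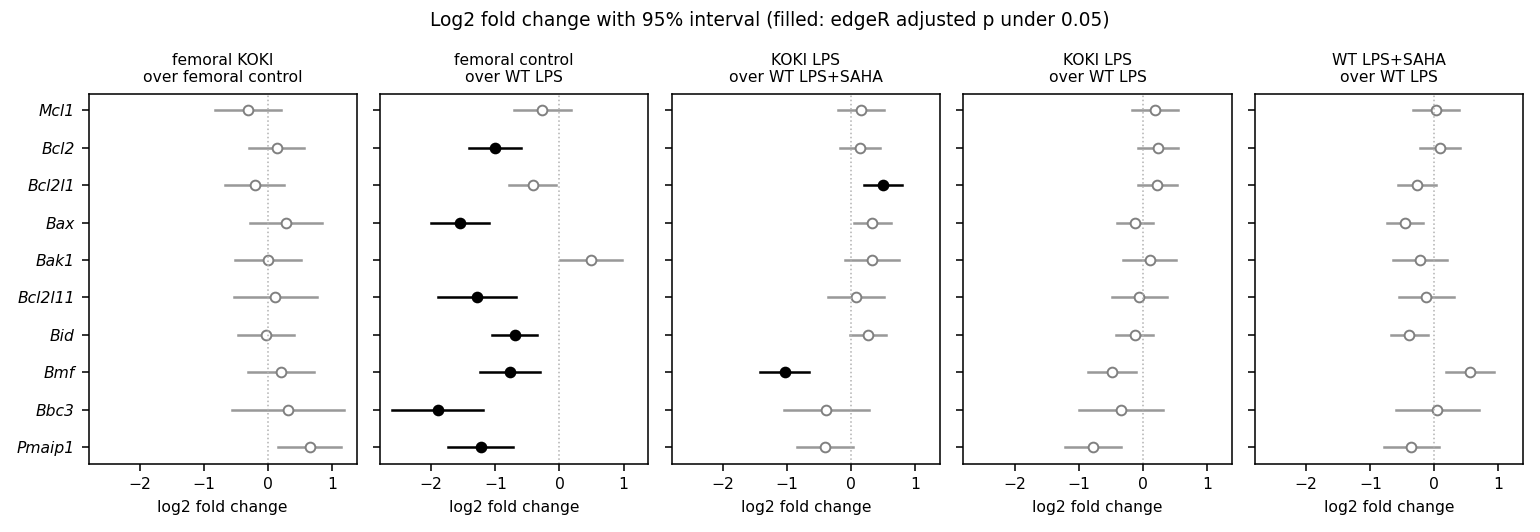
Points give the log2 fold change of each member in 5 comparisons, lines its 95% interval from the edgeR fit, and filled points an adjusted p under 0.05. Filled points are Bmf and Bcl2l1 in KOKI LPS over WT LPS+SAHA and 7 members, all lower, in femoral control over WT LPS.

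Patterns across the 6 splenic libraries were compared with those of 12590 genes with a mean of at least 1 CPM, for the 2 members called there. Closest to Bmf by Pearson's r of log2 CPM were Ppm1l (0.999) and Kif16b (0.997), and closest to Bcl2l1 were Zcchc17 (0.999) and Asf1b (0.999). With 6 libraries in 3 groups and so many candidates, values of this size describe the libraries only, and these are the highest of all candidates by choice.

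Between the femoral KOKI pools and the femoral controls no member passed. Pmaip1 had the largest difference, at 27.8 CPM in the KOKI pool lacking RAG2 and gamma c and 26.3 CPM in that lacking RAG2 alone, against 14.4 and 20.3 CPM in the controls (log2 0.65, SE 0.22, edgeR adjusted p = 0.216). Both KOKI pools were above both controls. Of the 10 members edgeR called 0 (1 at an unadjusted p under 0.05, 0 by DESeq2), beside 0.0301% of 16624 genes. Over all genes, 2687 of 16624 had an unadjusted edgeR p under 0.05, and DESeq2 called 677. On the CPM scale of the 4 femoral libraries alone, the groups did not overlap for 2 members that were higher (Pmaip1 and Bmf) and 2 that were lower (Mcl1 and Bcl2l1) in the KOKI pools, beside 25.3% and 24.2% of all genes; scaled over all 10 libraries, Bmf overlapped. The median was log2 0.13 over the members and −0.02 over all genes. Bone stroma markers summed to 2430 and 2266 CPM in the KOKI pools and 624 and 1436 CPM in the controls, and their part in these values was not tested. On the matched background, without the pool lacking RAG2 alone, Pmaip1 was at log2 0.71 (edgeR adjusted p = 0.953), with the lone pool assumed to vary like the controls.

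Mcl1 stood at 307 and 301 CPM in the KOKI pools, against 400.0 and 355 CPM in the controls (log2 −0.31, 95% interval −0.82 to 0.20). It was lower in both pools and did not pass. Bcl2l11 stood at 27.2 and 27.0 CPM in the KOKI pools, against 17.3 and 33.1 CPM in the controls, and Bax at 30.5 and 26.8 CPM, against 28.4 and 18.6 CPM. In both genes the controls lay further apart than the KOKI pools. Leaving out a control therefore moved them: without femoral control replicate 2, Bcl2l11 passed at log2 0.63 (edgeR adjusted p = 0.0198) and Pmaip1 at log2 0.90 (adjusted p = 0.00132), and without femoral control replicate 1, Bax passed at log2 0.65 (adjusted p = 0.0178). In these fits 3456 and 2114 genes of the table passed, against 5 with all 4 libraries. They set 1 control, assumed to vary like the other libraries, against 2 KOKI pools that lay close together, so these p-values rest mainly on the spread between those pools. Bcl2 (log2 0.14), Bcl2l1 (log2 −0.20), Bak1 (log2 0.00), Bid (log2 −0.03), Bmf (log2 0.21) and Bbc3 (log2 0.32) were not called. In the further lists edgeR called 0 genes: at an unadjusted p under 0.05 it had 2 of 12 other family genes (median 0.52), 2 of 22 caspase and inhibitor genes, 6 of 21 p53 pathway genes, 3 of 23 regulators and 2 of 13 death receptor genes. Beside these, 2687 of all 16624 genes had such a p. DESeq2 called 1 p53 pathway gene and 1 regulator in the lists, beside 677 genes of the table.

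The KOKI difference in spleen was set against that in femur in 1 fit of all 10 libraries. Pmaip1 was lower in KOKI spleen cultures and higher in KOKI femoral pools, and the difference between the effects was log2 −1.44 (SE 0.33, edgeR adjusted p = 0.0739). It did not pass, and neither did any other member (0 of 10 by edgeR, 2 at an unadjusted p under 0.05, 1 by DESeq2), beside 0.846% of 20204 genes (0.416% positive and 0.431% negative). Over all genes, 2655 of 20204 had an unadjusted edgeR p under 0.05, and DESeq2 called 550. Without femoral control replicate 2 the difference for Pmaip1 was log2 −1.68. Bmf had log2 −0.70 (edgeR adjusted p = 0.346).

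Femoral control cells against WT LPS blasts gave the largest differences of the family. Tissue, RAG2 and gamma c deficiency, cell composition and culture cannot be told apart in this comparison, and the femoral libraries held almost no mature B cell RNA. Of the 10 members, 7 were lower in the femoral controls and 0 were higher, beside 21.1% of 20204 genes called lower, 21.3% called higher and 42.4% in either direction. Libraries did not overlap for 9 members that were lower and 0 that were higher, beside 35.3% and 36.1% of all genes. The median was log2 −0.89 over the members and 0.02 over all genes.

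Bbc3, Bax, Bcl2l11 and Pmaip1 had the widest gaps. Bbc3 (PUMA) stood at 3.23 and 3.44 CPM in the femoral controls, against 10.0 and 14.9 CPM in WT LPS (log2 −1.90, SE 0.32, edgeR adjusted p = 0.000572). Bax stood at 28.4 and 18.6 CPM in the femoral controls, against 69.5 and 68.6 CPM in WT LPS (log2 −1.55, SE 0.20, edgeR adjusted p = 8.44e-05). Bcl2l11 (BIM) stood at 17.3 and 33.1 CPM in the femoral controls, against 54.8 and 68.7 CPM in WT LPS (log2 −1.29, SE 0.28, edgeR adjusted p = 0.00273). In each of these genes both femoral values were below both WT LPS values. Pmaip1 was lower too (log2 −1.23, edgeR adjusted p = 0.00122), as were Bmf (log2 −0.77, adjusted p = 0.0117) and Bid (log2 −0.70, adjusted p = 0.0041). Bmf did not pass without femoral control replicate 1 or WT LPS replicate 1 (edgeR adjusted p = 0.063 and 0.0887), and Bid did not pass without WT LPS replicate 1 (adjusted p = 0.0688). DESeq2 did not call Bmf (adjusted p = 0.0525) and called Bak1, giving 6 members lower and 1 higher.

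The guardians split. Bcl2 was lower, at 50.6 and 66.8 CPM in the femoral controls, against 117 and 119 CPM in WT LPS (log2 −1.004, SE 0.19, edgeR adjusted p = 0.00103). Mcl1, at 400.0 and 355 CPM in the femoral controls, against 466 and 441 CPM in WT LPS, did not pass (log2 −0.27, 95% interval −0.70 to 0.17), and neither did Bcl2l1 (log2 −0.41, edgeR adjusted p = 0.0667). Bak1 was the only member with a positive value, at 54.3 and 37.3 CPM in the femoral controls, against 27.5 and 37.5 CPM in WT LPS (log2 0.49, SE 0.22, edgeR adjusted p = 0.0908). Its libraries overlapped, and it passed with RLE size factors (log2 0.66, adjusted p = 0.0364), which raised the median of all genes by 0.16, with DESeq2 (log2 0.66, adjusted p = 0.0472) and without femoral control replicate 2 (log2 0.86, adjusted p = 0.0105).

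Other guardians of activated B cells were far lower in the femoral controls. Bcl2a1d, an A1 protein that NF-kB induces, stood at 2.21 and 1.81 CPM in the femoral controls, against 167 and 131 CPM in WT LPS (log2 −6.21, SE 0.27, edgeR adjusted p = 1.64e-08). Bcl2a1b (log2 −6.11) and Bcl2a1a (log2 −3.14) were lower as well, and since these copies are nearly identical, the split of reads among them is uncertain. Bcl2a1b had 2 and 51 counts in the femoral controls, and its log2 fold change was −9.62 without femoral control replicate 2, resting on those 2 counts, and −5.16 without replicate 1. Bnip3l rose in the femoral controls (log2 2.07, edgeR adjusted p = 6.26e-06), where erythroid markers were high, NIX being known to clear mitochondria from maturing red cells; the part of these cells was not tested. These were 1 rise and 4 falls among 13 other family genes (median −0.54), the fourth fall being Bcl2l2 (log2 −0.90). Of 22 caspase and inhibitor genes 7 rose and 7 fell (median 0.05), with the paralogues Naip6, Naip2 and Naip5 highest (log2 4.40, 3.59 and 3.57), among which reads may be shared, and Endog (log2 −1.92), Birc3 (log2 −1.67) and Dffa (log2 −1.27) lowest. Of 22 p53 pathway genes 2 rose and 9 fell (median −0.56), with rises of Perp (log2 4.57, SE 1.13) and the growth arrest gene Gadd45a (log2 2.22), and the largest falls in Trp73, or p73 (log2 −5.57), Rps27l (log2 −2.09) and Phlda3 (log2 −1.93). Trp73 had 0 and 4 counts in the femoral controls, and its log2 fold change was −4.62 without replicate 1 of them; without replicate 2 the remaining control held 0 counts, so no fold is given. Phlda3 passed in 1 of 8 alternatives (highest adjusted p = 0.23), and Perp, with 4 and 1 counts in WT LPS, did not pass without WT LPS replicate 2 (edgeR adjusted p = 0.0667). Of 24 regulators and partners 2 rose and 11 fell (median −0.32), Foxo3 (log2 1.54) and March5 (log2 0.54) against Pim2 (log2 −3.87), Foxo1 (log2 −2.05) and Pim1 (log2 −1.52). March5 did not pass without femoral control replicate 1 or either WT LPS library (log2 0.32 to 0.66, edgeR adjusted p = 0.0708 to 0.182). Of 13 death receptor genes 4 rose and 5 fell (median −0.24). The largest falls were in receptors found on B cells that are no death receptors: Tnfrsf13c, the BAFF receptor (log2 −7.50), Cd40 (log2 −4.55) and Tnfrsf13b (log2 −3.22). Against these, the TNF receptor Tnfrsf1a rose, at 63.5 and 64.7 CPM in the femoral controls and at most 0.484 CPM in WT LPS.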

How the data were processed

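RNA was measured in 10 libraries made with the TruSeq Stranded Total RNA kit, per the labels' protocols. The authors deposited unnormalised read counts for each gene, and gene lengths. Per the submitters' processing notes, STAR 2.4.0a and featureCounts of Subread 1.4.6-p1 were used with build mm10 (GRCm38). For strand and multi-mapping reads, the settings were not given in the sources used here. A set of 100 spike-in and phiX entries, with 1 to 17 counts per library, was left out.

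Samples were grouped by title. Tests used edgeR 4.0.16 (R 4.3.3): TMM, filterByExpr (minimum count 10, total 15), quasi-likelihood F test, and Benjamini-Hochberg adjustment over all genes tested, with 0.05 as the threshold. The 3 splenic comparisons came from 1 fit of 6 libraries, the femoral KOKI comparison from 4, and the others from all 10 in 6 groups. CPM used TMM factors over all 10 libraries, and marker sums used plain totals. The scripts were tested on simulated data. Nothing in the labels says that splenic replicates came from separate animals beyond their numbers, so p-values reflect how these samples spread, possibly for technical reasons. The labels do not state that equal numbers mark a shared animal, and the fits have no block.

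The members and lists were chosen with earlier results of these data known. Named were all members and, per list and comparison, up to 3 called genes with the largest rise and 3 with the largest fall; 1 of these genes is not reported here. Alternatives were RLE factors, DESeq2 1.42.0, no low-count filter, leaving out libraries (a group left with 1 library is assumed to vary like the others), a replicate block and all libraries in 1 fit.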

Additional observations from a re-analysis of the deposited data

Results flagged for a closer look

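Bnip3 and Bnip3l stood out because their KOKI effect differed between spleen and femur in a test of that difference. For Bnip3 the difference was log2 2.70 (SE 0.33, edgeR adjusted p = 0.00331). It stood at 60.4 and 88.0 CPM in KOKI LPS, against 9.54 and 11.1 CPM in WT LPS, and at 11.8 and 10.7 CPM in the femoral KOKI pools, against 9.01 and 11.3 CPM in the femoral controls. For Bnip3l the difference was log2 1.97 (SE 0.27, edgeR adjusted p = 0.00715). It stood at 126 and 122 CPM in the femoral KOKI pools, against 143 and 147 CPM in the femoral controls. Bnip3 passed when any of the 8 libraries was left out, and Bnip3l did so except without WT LPS replicate 2 (adjusted p = 0.0508).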

How the results depend on the processing

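Of 540 values of members under alternatives, 484 kept their direction and side of the threshold, 19 passed where the result given above did not, 10 no longer passed and 27 changed sign, all in genes that were not called. With the WT number as a replicate block, SAHA gave 3413 genes (1240 higher, 2173 lower) against 712, and 3 members (Bmf higher, Bax and Bid lower) against 0. That block fit held the wild-type libraries alone, whereas the fit that gave 712 also held KOKI LPS. The block gave 1144 genes and 1 member, Pmaip1, for KOKI LPS against WT LPS, and 4 members for KOKI LPS against WT LPS+SAHA. Between femoral control and WT LPS it changed no member's call, with 8379 genes called against 8568. Deviations of same-numbered WT libraries correlated at 0.364, those of KOKI LPS with WT LPS at 0.0793 and with WT LPS+SAHA at 0.0939. No paired analysis was made for the femoral KOKI pools, since nothing in the labels pairs them with the control pools. In the block of femoral control and WT LPS, equal numbers joined libraries of different mice. The blocks for KOKI LPS against either wild-type group likewise joined KOKI and wild-type libraries, which came from different mice. These 3 comparisons therefore hold no true pairs.

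Calls over all genes depended on the tool. DESeq2 called 1704 genes with SAHA (2 members), 1088 for KOKI LPS against WT LPS (1 member), 677 between femoral KOKI and control, and 550 for spleen minus femur (1 member, against 171 genes and 0 members). No low-count filter gave 1970, 1254 (1 member), 662 and 950 (1 member) in the same order, and 1 member for KOKI LPS against WT LPS+SAHA; it moved the median of all genes by 0.52 with SAHA and by −0.97 for KOKI LPS against WT LPS+SAHA. With all 10 libraries SAHA called 211 genes, femoral KOKI 0 (2796 at an unadjusted p under 0.05), and KOKI LPS against WT LPS+SAHA 1 member (median of all genes lower by 0.16). RLE factors gave 0 for femoral KOKI (2702 at an unadjusted p under 0.05), and 580 with SAHA.

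Leaving out libraries gave 0 to 290 genes with SAHA, 270 to 332 for KOKI LPS against WT LPS, 1703 to 2235 (against 3639) and 1 to 1 members for KOKI LPS against WT LPS+SAHA, 13 to 3456 genes and 0 to 2 members for femoral KOKI, and 45 to 566 genes and 0 to 1 members for spleen minus femur. Signs changed for SAHA in Bbc3 (log2 −0.22 to 0.36), Mcl1 (−0.034 to 0.067; −0.0012 with all 10 libraries), Bcl2l11 (−0.32 to 0.040) and Bak1 (−0.44 to 0.016). They changed for KOKI LPS against WT LPS in Bak1 (−0.11 to 0.37) and Bcl2l11 (−0.22 to 0.14), and against WT LPS+SAHA in Bcl2l11 (−0.079 to 0.27). For femoral KOKI they changed in Bak1 (−0.26 to 0.33; −0.0072 with RLE and with DESeq2), Bcl2 (−0.027 to 0.34), Bcl2l11 (−0.26 to 0.63), Bax (−0.00039 to 0.65), Bbc3 (−0.056 to 0.65) and Bid (−0.21 to 0.16). For spleen minus femur they changed in Bcl2l11 (−0.69 to 0.22), Bak1 (−0.21 to 0.36), Bcl2 (−0.10 to 0.27) and Bid (−0.29 to 0.086). The causes were not tested. With 2 libraries a group, differences as small as those of most members could not be told from the spread.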
